A study of Mus musculus with 10 samples.

Results

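The hemidesmosome integrins and laminin-332 were followed through 9 genes chosen by symbol from the deposited expression table of 18586 rows: the integrin subunits Itga6, Itgb4, Itga3, Itgb1, Itga2 and Itgav, the laminin chains Lama3 and Lamb3, and Col17a1, which encodes the transmembrane collagen XVII. All 9 were in the table, and 8 of them were among the 11630 genes with 1 TPM or more (a transcript abundance normalised for transcript length and library) in 4 or more libraries, which were tested. Itga2 fell below that filter. Expression was measured by RNA-seq of poly(A) RNA in 10 libraries of cultured mouse tongue epithelial cells, 6 of the EY genotype and 4 of the N genotype.

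N cells carried Krt14-CreERT, LSL-rtTA and tetON_H2B-GFP. EY cells carried those same 3 alleles together with tetON_E6-E7, the HPV16 oncogenes that inactivate p53 and RB, and tetON_YAP1S127A, a YAP1 that escapes inhibition by Hippo signalling. Mice of both genotypes received tamoxifen into the tongue and doxycycline in the diet. Epithelial cells were collected at day 15 after induction and sorted for GFP. They were grown on collagen-coated plates in keratinocyte medium with EGF, cholera toxin and doxycycline. Per the study's methods, its transgenic mice were adult littermates in groups matched for age and sex, and the age of each mouse behind these cultures was not used here. The Krt14 promoter directs Cre to basal cells, so the model covers the basal layer and its progeny, away from the native basement membrane once in culture. The EY libraries came from 3 culture lines with 2 libraries each, namely EY3960 (EY replicates 1 and 4), EY4028 (replicates 2 and 5) and EY4174 (replicates 3 and 6). All 4 N libraries came from 1 line, N4172. Genotype and line therefore cannot be told apart for N, and p-values measure the spread between libraries of a few cultures and not between animals. In bulk RNA, fewer cells of a type and less RNA per cell cannot be told apart either.

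Basal epithelial cells attach to the basement membrane through hemidesmosomes. There, integrin α6β4 and collagen XVII bind laminin-332, a trimer that holds the chains encoded by Lama3 and Lamb3, outside the cell, and the plakins plectin and BPAG1 tie them to keratin filaments inside. Integrin α3β1 binds the same laminin but connects to actin at focal adhesions, α2β1 binds collagen, and αv subunits pair with several β chains to bind fibronectin and vitronectin and to activate latent TGF-β.

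The genotype labels were checked on Yap1, which was measured at 34.7 to 57.1 TPM in EY and at 17.2 to 20.9 TPM in N. Whether reads of the YAP1 transgene count toward this row is not given in the sources used here. Markers of the basal epithelium summed to between 5262 and 7748 TPM in EY and between 5855 and 6429 TPM in N, with all 6 markers in the table. The 8 suprabasal markers in the table, which include Krt13, Ivl and Sprr3, summed to 456 and 424 TPM in EY3960, 136 and 123 TPM in EY4028, and 63.1 and 65.0 TPM in EY4174. The same sum was 122, 138 and 138 TPM in N replicates 1 to 3 and 393 TPM in N replicate 4. N replicate 4 and EY3960 thus had higher suprabasal sums than the other libraries. The sum of N replicate 4 rested largely on Sprr1a, at 195 TPM against 15.8 to 19.2 TPM in N replicates 1 to 3. Krt4, Krt10, Krt13, Lor, Sprr3 and Krtdap were also higher there than in each of those N libraries, whereas Ivl was within their range. The raised sum of this library thus goes with higher values of every suprabasal marker in the table except Ivl. Of the fibroblast markers 2 of 7 were in the table, of the immune markers 3 of 6 and of the endothelial markers 3 of 4. Of the skeletal muscle markers 2 of 4 were there, and of the melanocyte markers 4 of 4. For each of these cell types, the sum over the markers present did not exceed 3.44 TPM in any library. Absent markers, such as Col1a2, Dcn, Cd3e and Lyz2, are not covered by these sums.

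Levels of the 9 genes spanned a wide range, and TPM values, being per transcript length, allow the genes to be ordered. Itgb1, the β chain shared by most epithelial integrins, had the highest mean in both genotypes, which was 361 ± 57.3 TPM for EY (SD, n = 6) and 301 ± 54.7 TPM for N (SD, n = 4). Itga6 followed, and in N the ranges of Itgb1 and Itga6 overlapped. Lama3, Col17a1 and Itga3 came next. Itga3 and Col17a1 were neighbours with overlapping ranges in EY, at means of 75.3 and 77.1 TPM, whereas in N every Col17a1 value was above every Itga3 value, at means of 78.2 and 47.1 TPM. Itgb4 and Lamb3 lay close together with overlapping ranges in both genotypes and exchanged places in the order. Itgav was lower still, with means of 20.7 ± 2.88 TPM for EY (SD, n = 6) and 18.1 ± 1.83 TPM for N (SD, n = 4). Itga2 was last.

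**Figure D1:**
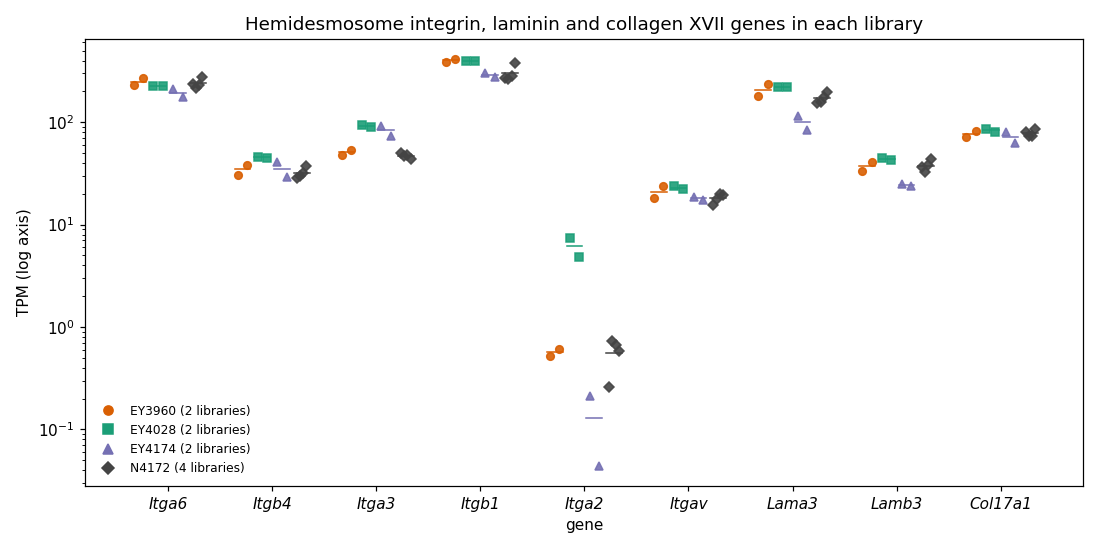
TPM (log axis) of the 9 genes in each of the 10 libraries, with points by culture line and a short bar at each line's mean. Itgb1 and Itga6 are at the top, Itga2 is far below the rest and reaches several TPM in line EY4028 alone, and the points of most other genes overlap between EY lines and N.

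The first comparison asked which of these transcripts differed between EY and N. In limma's test over all genes, none of the 8 tested genes was called, that is, had an adjusted p under 0.01 and a log2 fold change beyond 1 in size on the log2(TPM + 1) scale. Of all genes tested, 3.55% were called (1.85% higher and 1.70% lower in EY). None of the 8 passed on the adjusted p alone, as 11.8% of all genes did, and 1 of the 8 had an unadjusted p under 0.05, as did 4367 of the 11630 genes. No gene of the 9 had all EY libraries on one side of all N libraries, while 20.4% of the tested genes did (11.3% above and 9.10% below). The median log2 fold change of the 8 was 0.07, beside 0.03 over all genes tested.

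The receptor of the hemidesmosome was examined first. Itga6, which encodes the laminin-binding α6 chain, was at 231 and 268 TPM in EY3960, 225 and 224 TPM in EY4028, and 212 and 175 TPM in EY4174, against 237, 215, 233 and 278 TPM in the N libraries. The groups overlapped throughout, with the lowest value in EY4174 and the highest in N. The log2 fold change was -0.12 ± 0.11 (SE), with a 95% confidence interval from -0.36 to 0.12 (limma adjusted p = 0.459).

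Itgb4, the β4 chain whose long cytoplasmic tail binds plectin and which pairs only with α6, was at 30.5 and 38.6 TPM in EY3960, 46.1 and 44.8 TPM in EY4028, and 40.5 and 29.3 TPM in EY4174. The N libraries had 28.4, 30.03, 31.6 and 37.0 TPM. Both EY4028 libraries were above every N library, and each other line had 1 library above the N range and 1 within it. The log2 fold change was 0.25 ± 0.14 (SE; 95% confidence interval -0.05 to 0.55; limma adjusted p = 0.209). In EY4028 against N it was 0.51 ± 0.15 (SE), at an adjusted p of 0.0237. Without N replicate 4, the N library with the highest Itgb4, this line's value was 0.59, at a limma adjusted p of 0.00598. Leaving out the highest N value raises the difference by itself, so the smaller p-value is no separate support.

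Col17a1, the collagenous adhesion receptor of the hemidesmosome, had the smallest standard error of the 8 tested genes. It was at 71.8 and 81.9 TPM in EY3960, 85.6 and 81.1 TPM in EY4028, 79.7 and 62.2 TPM in EY4174, and 80.8, 73.5, 72.6 and 86.0 TPM in N. The EY libraries lay within or below the N range. The log2 fold change was -0.03 ± 0.10 (SE), and its 95% confidence interval of -0.23 to 0.18 does not reach the 1 log2 needed for a call (limma adjusted p = 0.872).

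Itga3, the α chain of the laminin-332 receptor α3β1, had the largest difference among the 8 tested genes. It was at 48.3 and 53.8 TPM in EY3960, 93.0 and 90.4 TPM in EY4028, and 92.0 and 74.1 TPM in EY4174, against 49.5, 47.2, 47.8 and 43.8 TPM in N. All 4 libraries of EY4028 and EY4174 were above every N library, and the 2 libraries of EY3960 were close to N. The EY libraries averaged 75.3 ± 20.1 TPM (SD, n = 6) and the N libraries 47.1 ± 2.39 TPM (SD, n = 4), a 1.60-fold ratio. Over all EY libraries the log2 fold change was 0.62 ± 0.19 (SE; 95% confidence interval 0.21 to 1.03; limma adjusted p = 0.0316). Leaving out EY3960 gave 0.87 at a limma adjusted p of 1.21e-04, and leaving out its replicate 1 alone gave 0.74 at 0.0055. This line and this library had the lowest Itga3 of EY. Leaving them out raises the difference by itself, so the smaller p-values are no separate support.

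Itgb1, the partner of α3, α2 and αv, was at 391 and 412 TPM in EY3960, 393 and 394 TPM in EY4028, 303 and 275 TPM in EY4174, and 269, 267, 285 and 382 TPM in N. The EY3960 and EY4028 libraries were above all N libraries, and the EY4174 libraries were within the N range. N replicate 4 stood apart from the other N libraries in this gene, and it was also the N library with the raised suprabasal sum. The part of that library in the result was examined by leaving it out. The library was picked by its value in this same gene, so smaller p-values without it are no separate support. With all libraries the log2 fold change was 0.26 ± 0.14 (SE; limma adjusted p = 0.187). Against N it was 0.43 in EY3960 and 0.40 in EY4028, at limma adjusted p-values of 0.0298 and 0.0382. Without N replicate 4 these became 0.55 and 0.52, at 4.49e-05 and 7.87e-05, while EY4174 changed sign from -0.04 to 0.08 (adjusted p = 0.838 and 0.339).

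Itgav, the αv chain, was at 18.2 and 23.7 TPM in EY3960, 23.7 and 22.2 TPM in EY4028, 18.5 and 17.5 TPM in EY4174, and 15.7, 17.7, 19.7 and 19.3 TPM in N. The higher library of EY3960 and both of EY4028 were above the N range. The difference was 0.18 ± 0.11 on the log2 scale (SE; 95% confidence interval -0.07 to 0.42; limma adjusted p = 0.285).

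Itga2, the collagen-binding α2 chain, was the only one of the 9 whose level set 1 line apart by several fold. It was at 7.41 and 4.87 TPM in EY4028, 0.52 and 0.62 TPM in EY3960, 0.21 and 0.044 TPM in EY4174, and 0.26, 0.73, 0.66 and 0.58 TPM in N. Outside EY4028 every library was below 1 TPM, where single reads can carry much of a value, and the number of reads is unknown here. Because only 2 libraries reached 1 TPM the gene was not tested in the filtered table. In a fit of all 18586 rows, EY4028 differed from N by 2.18 ± 0.18 (SE) on the log2 scale (limma adjusted p = 3.91e-05), and EY as a group by 0.58 ± 0.57 (SE; limma adjusted p = 0.540). The EY mean of 2.28 TPM is therefore the mean of 1 line at several TPM and 2 lines under 1 TPM.

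The ligand was examined next. Lama3, the chain of laminin-332 that integrins recognise, was at 178 and 234 TPM in EY3960, 218 and 219 TPM in EY4028, 116 and 83.7 TPM in EY4174, and 154, 157, 176 and 198 TPM in N. The EY4174 libraries were below every other library, and the other EY libraries lay within or above the N range. EY averaged 175 ± 61.7 TPM (SD, n = 6) and N averaged 171 ± 20.3 TPM (SD, n = 4), with a log2 difference of -0.05 ± 0.28 (SE; 95% confidence interval -0.68 to 0.58; limma adjusted p = 0.913). Leaving out EY4174 moved the difference to 0.31 (limma adjusted p = 0.0541).

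Lamb3, the β3 chain, which is found only in laminin-332 and its close relatives, was at 33.2 and 40.7 TPM in EY3960, 44.4 and 43.2 TPM in EY4028, 25.1 and 23.8 TPM in EY4174, and 36.6, 32.7, 37.9 and 43.7 TPM in N. Again both EY4174 libraries were below all others. The difference over all libraries was -0.14 ± 0.18 on the log2 scale (SE; limma adjusted p = 0.620), and 0.09 without EY4174.

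The second comparison asked how each EY line stood against N, in a model with 4 line means. The 3 contrasts share the N libraries, so their values are given side by side. None of the 8 tested genes was called in any line, beside 7.04% of all genes in EY3960, 5.74% in EY4028 and 4.95% in EY4174. By the adjusted p alone, 0 of the 8 passed in EY3960 (17.0% of all genes), where 1 had an unadjusted p under 0.05. In EY4028, 1 of the 8 passed (16.7% of all genes), and in EY4174, 3 of the 8 (15.6% of all genes).

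Itga3 was higher in EY4028 by 0.95 ± 0.10 (SE; limma adjusted p = 5.5e-05) and in EY4174 by 0.80 ± 0.10 (adjusted p = 2.12e-04), and its value in EY3960 was 0.11 ± 0.10 (adjusted p = 0.429). Lama3 was lower in EY4174 by 0.78 on the log2 scale (SE 0.15; limma adjusted p = 0.00384), and Lamb3 by 0.60 (SE 0.12; adjusted p = 0.00405). In EY4174, then, the α chain of the α3β1 receptor was higher than in N while both laminin chains of this group were lower. Leaving out EY replicate 6, the EY4174 library with the lowest Lama3, gave -0.55 for Lama3 (adjusted p = 0.0568) and -0.56 for Lamb3 (adjusted p = 0.0469). Lamb3 also lost its adjusted p under 0.01 without EY replicate 3 (-0.64, 0.0215), and both chains did so without N replicate 3 (-0.77 at 0.0117, and -0.59 at 0.0121).

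The remaining values in EY4174 were -0.31 for Itga6 (limma adjusted p = 0.0564), -0.15 for Col17a1, 0.12 for Itgb4, -0.04 for Itgb1 and 0.00 for Itgav. EY4028 had positive values for 7 of the 8 tested genes, between 0.09 for Col17a1 and 0.95 for Itga3, and -0.09 for Itga6. In EY3960 the values ran from -0.03 for Lamb3 to 0.43 for Itgb1.

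**Figure D2:**
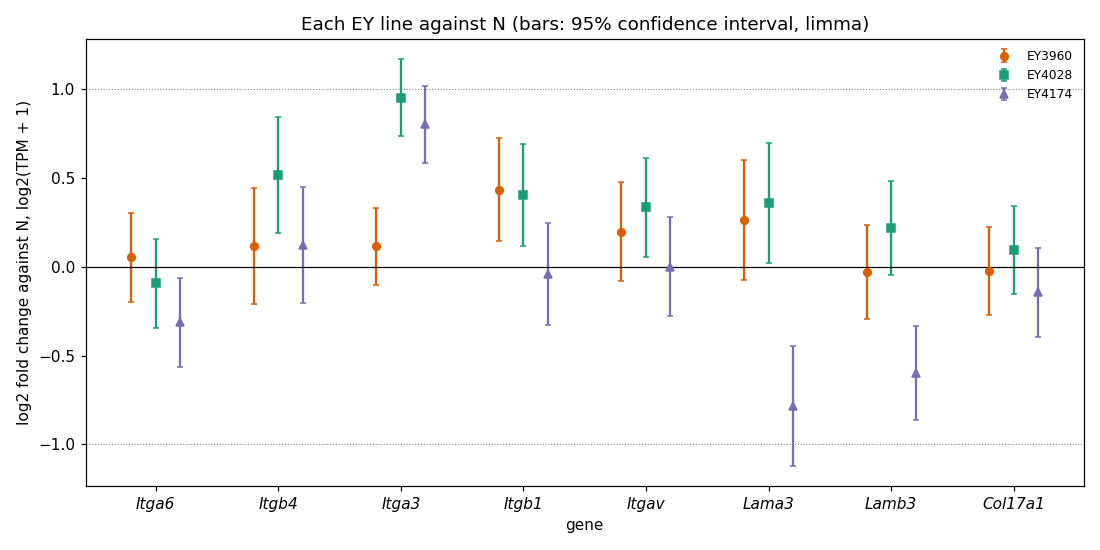
Log2 fold change of each EY line against N on the log2(TPM + 1) scale for the 8 tested genes, with 95% confidence intervals from limma; dotted lines mark a log2 fold change of 1 and -1. Itga3 is near 0 in EY3960 (0.11) and at 0.95 and 0.80 in the other lines, and Lama3 and Lamb3 are below 0 in EY4174 (-0.78 and -0.60).

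The third comparison asked how far the genes varied among cultures of the EY genotype, with limma's F test over the 3 EY line means. An adjusted p under 0.01 was reached by 3 of the 8 tested genes, Itga3, Lama3 and Lamb3, beside 8.55% of all genes. When a pair of lines also had to be more than 1 log2 unit apart, 1 of the 8 was called, Lama3, beside 5.12% of all genes. Lama3 differed by 1.14 ± 0.18 (SE) between EY4028 and EY4174, the higher being EY4028, and by 1.04 ± 0.18 between EY3960 and EY4174 (limma adjusted p = 0.00205). This call was lost without EY replicate 6, where the largest difference was 0.90 at an adjusted p of 0.025, and under median-ratio scaling, which left 0 of the 8 called. Lamb3 differed by 0.82 ± 0.14 (SE) between EY4028 and EY4174, in the same direction (adjusted p = 0.00531). Its adjusted p was at 0.01 or above when any one of EY replicates 2 to 6, N replicate 1 or N replicate 3 was left out (0.0103 to 0.0493), with no filter on low values (0.0101), and in limma without the trend and robust options (0.0118).

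Itga3 had a different order of lines. EY4028 exceeded EY3960 by 0.84 ± 0.11 (SE) and EY4174 exceeded EY3960 by 0.69 ± 0.11, while EY4174 and EY4028 differed by -0.15 ± 0.11 (limma adjusted p = 0.00101 for the 3 lines together). Without EY replicate 1 the adjusted p was 0.0202, with a largest difference of 0.76. The suprabasal marker sum was highest in EY3960, the line with the lowest Itga3, and lowest in EY4174, the line with the lowest Lama3 and Lamb3, and its part in these differences was not tested. Basal keratins also moved with the lines. Krt5 was lower in EY3960 than in N by 0.39 on the log2 scale (adjusted p = 0.00756) and higher in EY4174 by 0.48 (adjusted p = 0.00264), so the line with the least Lama3 and Lamb3 transcript had the most Krt5. Itga2, in the fit of all rows, differed by up to 2.64 between EY4028 and EY4174 (adjusted p = 6.76e-05).

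For Itgb1, limma's adjusted p among the lines was 0.0700 with all libraries and 5.59e-04 without N replicate 4. The largest difference was 0.47 in both fits, EY4174 being the low line. No N library enters the EY line means, so the smaller p-value is no separate support for a difference among them. The adjusted p-values of Itga6, Itgb4, Itgav and Col17a1 among the lines were 0.144, 0.171, 0.246 and 0.374. With 2 libraries a line, those values do not show that the lines had equal levels.

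**Figure D3:**
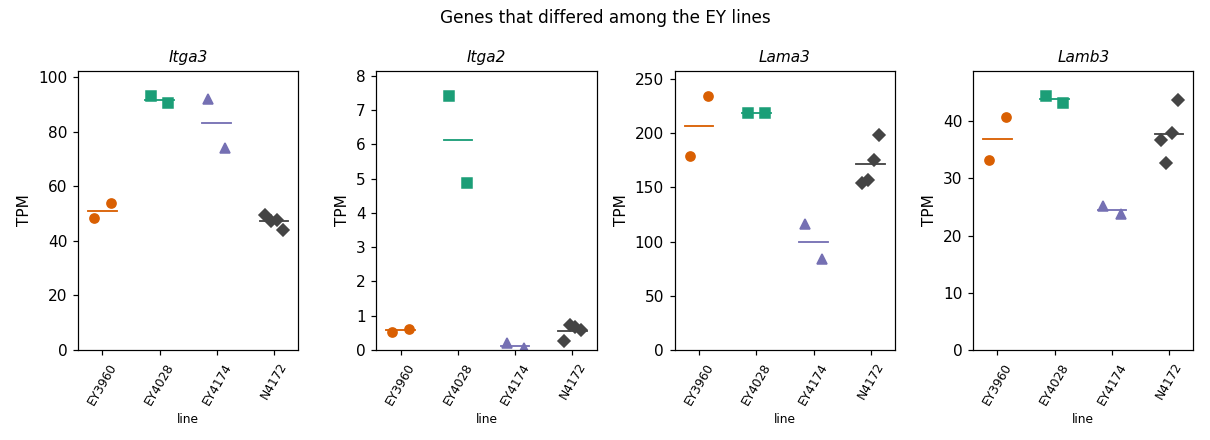
TPM of Itga3, Itga2, Lama3 and Lamb3 in each library by culture line, with a bar at each line's mean and each axis starting at 0. Itga3 is low in EY3960 and N4172, Itga2 is high in EY4028 only, and Lama3 and Lamb3 are low in EY4174.

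When the 4 line means of each gene were ordered, EY4174 was lowest for 7 of the 9 genes, as it was for 32.2% of all tested genes, and EY4028 was highest for 7 of the 9, as for 30.8% of all. N was lowest for Itgb4 and Itga3 and lay between EY lines for the other 7 genes, a position it held for 41.9% of all tested genes. For Itgb1 and Itgav this order rests on N replicate 4. EY4174 was at 289 and 18.03 TPM, beside N means of 301 and 18.10 TPM. Without N replicate 4 the N means were 274 and 17.70 TPM, which would make N the lowest for both genes. These counts describe the 4 lines and are no test, since the genes share the same libraries.

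Ratios of TPM within a library showed how the balance of partner chains was set, as a description with no test. The ratio of Itga3 to Itga6, the α chains of the focal adhesion and the hemidesmosome receptors of laminin-332, was 0.209 and 0.201 in EY3960 and between 0.157 and 0.219 in N. It was 0.413 and 0.404 in EY4028 and 0.435 and 0.422 in EY4174. These 2 lines had about the same ratio, above every N library, although their laminin levels were at opposite ends.

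The ratio of Itgb4 to its only partner Itga6 was 0.132 and 0.144 in EY3960, 0.205 and 0.200 in EY4028, 0.191 and 0.167 in EY4174, and 0.120 to 0.140 in N. The β4 transcript was thus the less abundant of the pair in every library. The ratio of Col17a1 to Itgb4 was 1.81 to 2.35 in EY and 2.30 to 2.85 in N, with the 4 libraries of EY4028 and EY4174 and EY replicate 4 below every N library. The ratio of Lama3 to Lamb3 was 3.52 to 5.76 in EY and 4.20 to 4.80 in N. The libraries of EY3960 (5.37 and 5.76) and EY4028 (4.92 and 5.06) were all above every N library. In EY4174, 1 library was within the N range (4.63) and 1 below it (3.52), so the groups overlapped.

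The ratio of Itgb4 to Itgb1 was 0.0781 to 0.133 in EY and 0.0969 to 0.113 in N, again with EY libraries on both sides. The ratio of Itgav to Itga3 was 0.377 and 0.441 in EY3960, 0.255 and 0.246 in EY4028, 0.201 and 0.237 in EY4174 and 0.316 to 0.441 in N. EY4028 and EY4174 lay below the N range and EY3960 within it to 3 digits.

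**Figure D4:**
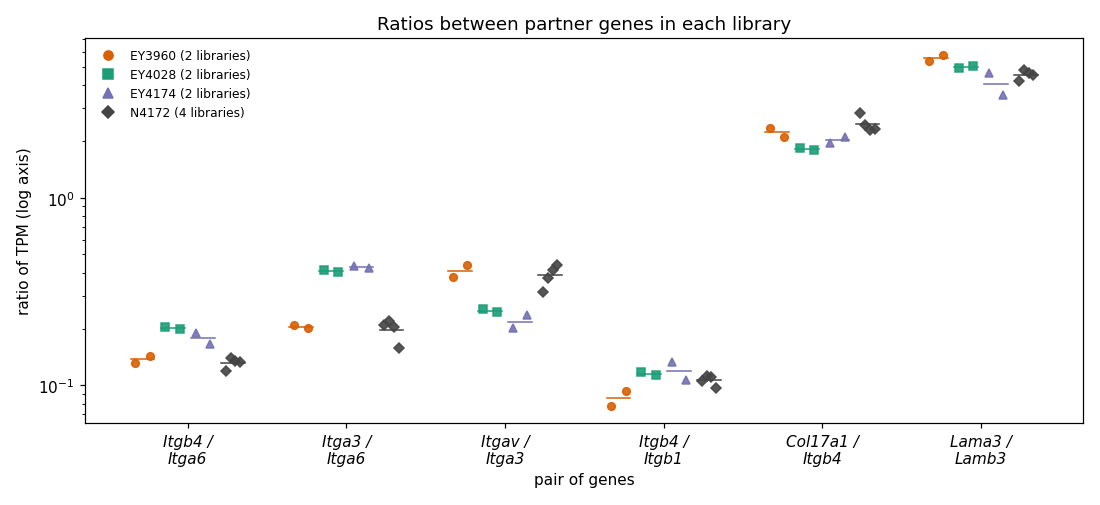
Ratio of TPM (log axis) for 6 pairs of genes in each library, with points by culture line and a short bar at each line's mean. The ratios of Itga3 to Itga6 in EY4028 and EY4174 are between 0.404 and 0.435, above EY3960 and N, which are between 0.157 and 0.219.

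The promoter windows of Itga3 and 1 window of Lamb3 are shown because these genes differed among the EY lines and YAP1 acts on DNA through TEAD factors. The windows run from 250 bases before to 50 bases after a RefSeq start on build GRCm38.p6. Windows were used for 6 of the 9 genes (8 windows for Itga3, Itgb1, Itga2, Itgav, Lamb3 and Col17a1). None was used for Itga6, Itgb4 and Lama3. Not every chromosome was searched, so this does not show that those genes lack a window. Capitals mark matches on either strand to the TEAD core, with the letters GGAATG and in reverse CATTCC, to the AP-1 site TGANTCA, and to the GC box, with the letters GGGCGG and in reverse CCGCCC. Of all 32851 windows in the table, 14.7% held the TEAD core, 7.81% the AP-1 letters and 35.7% the GC box. The 2 windows of Itga3 are on the minus strand, at chr11:95076665-95076964 and chr11:95069149-95069448. The Lamb3 window shown is on the plus strand at chr1:193301993-193302292, and it is the Lamb3 window with a motif match. The other Lamb3 window, at chr1:193301744-193302043, held no match and is not shown.
Itga3, upstream start: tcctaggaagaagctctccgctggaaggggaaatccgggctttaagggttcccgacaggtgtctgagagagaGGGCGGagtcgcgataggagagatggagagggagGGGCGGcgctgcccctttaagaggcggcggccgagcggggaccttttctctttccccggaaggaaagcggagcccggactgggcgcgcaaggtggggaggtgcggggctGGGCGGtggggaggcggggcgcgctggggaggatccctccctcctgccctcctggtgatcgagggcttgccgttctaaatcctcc
Itga3, downstream start: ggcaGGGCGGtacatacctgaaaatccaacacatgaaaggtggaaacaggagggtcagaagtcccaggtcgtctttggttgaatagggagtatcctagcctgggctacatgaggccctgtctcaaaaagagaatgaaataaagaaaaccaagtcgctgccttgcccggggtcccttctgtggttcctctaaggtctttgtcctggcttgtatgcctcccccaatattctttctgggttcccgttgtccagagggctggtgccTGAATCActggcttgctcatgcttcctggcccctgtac
Lamb3, downstream start: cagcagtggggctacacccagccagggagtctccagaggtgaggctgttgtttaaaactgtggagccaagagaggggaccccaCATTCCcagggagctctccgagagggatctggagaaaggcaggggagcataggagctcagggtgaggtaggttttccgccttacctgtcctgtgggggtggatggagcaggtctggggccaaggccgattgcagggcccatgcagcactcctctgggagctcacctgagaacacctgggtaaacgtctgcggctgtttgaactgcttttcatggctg
The upstream Itga3 window held 3 GC boxes and neither other motif. The downstream Itga3 window held 1 GC box and the AP-1 letters TGAATCA, whose first base is 12 bases after the start. The Lamb3 window held the TEAD core as CATTCC 167 bases before the start, and the other Lamb3 window held none of the motifs. In the remaining windows, the Itgb1 window held the TEAD core 7 bases before the start and a GC box, those of Itga2 and Itgav held a GC box each, and that of Col17a1 held none. A match describes letters in a window and is not a binding site.

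The known partners of these genes in the hemidesmosome were described next. Plec, which encodes plectin, the plakin that links integrin β4 to keratins, was at 8.42 and 13.8 TPM in EY3960, 14.7 and 13.9 TPM in EY4028, 14.9 and 10.1 TPM in EY4174, and 5.90 to 7.80 TPM in N. All EY libraries were above all N libraries, and the log2 difference of 0.75 ± 0.16 (SE) had adjusted p = 0.00565 in limma. Dst, the gene of the other hemidesmosomal plakin BPAG1, was in the opposite position, with 78.2 to 111 TPM in EY below 114 to 151 TPM in N. Its log2 fold change was -0.47 ± 0.12 (SE), at a limma adjusted p of 0.0124, which missed the threshold. It passed without N replicate 4 (-0.54, 0.00853), without EY4028 (-0.59, 0.00672), under median-ratio scaling (-0.50, 0.0026) and under quantile normalization (-0.53, 0.0067). N replicate 4 had the lowest Dst of N, and EY4028 had the highest mean of the EY lines. Leaving out either widens the difference by itself, so those 2 smaller p-values are no separate support. Dst also makes long isoforms outside hemidesmosomes, and the table has 1 row for all of them.

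Lad1, encoding the anchoring filament protein ladinin-1, was at 44.0 to 51.9 TPM in EY and 31.1 to 39.7 TPM in N, without overlap (0.45 ± 0.08, SE; limma adjusted p = 0.00247). Cd151, the tetraspanin that associates with α3β1 and α6β4, did not pass (0.10 ± 0.11, SE; adjusted p = 0.562). Krt5 and Krt14, the keratins anchored at the hemidesmosome, had log2 fold changes of 0.05 and -0.06 over all libraries (adjusted p = 0.855 and 0.803). Of these 6 partners, 2 were higher by the adjusted p alone and 0 lower, beside the 11.8% of all genes that passed in either direction, and 3 had an unadjusted p under 0.05. By limma's test none of the 6 was called. Plec passed only with most libraries present, since leaving out any single library other than EY replicate 1 or EY replicate 6 gave an adjusted p of 0.0116 to 0.0167 or, without N replicate 2, 0.0209. Lad1 no longer passed without N replicate 1, 2 or 3 (adjusted p = 0.0111, 0.0125 and 0.0115).

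Other β chains of laminin were lower than Lamb3. Lamb1, the β chain of laminins outside this class, was at 5.90 to 11.8 TPM in EY and 4.44 to 5.85 TPM in N, without overlap (0.64 ± 0.15, SE; limma adjusted p = 0.0110). Lamb2, which was not tested, was listed at 0 in 3 EY libraries and at no more than 0.018 TPM in the other EY libraries, and at 0.66, 0.34, 0.72 and 0.59 TPM in N.

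Of the 13 other integrin subunits listed, 9 were in the table and 4 were tested. None of these 4 passed the adjusted p between EY and N over all libraries, and 1 had an unadjusted p under 0.05. By line against N, 1 of the 4 was called in EY3960, 0 in EY4028 and 1 in EY4174, beside 7.04%, 5.74% and 4.95% of all genes. Itgb5 was lower in EY4174 by the adjusted p alone (-0.90, limma adjusted p = 0.00123). Itgb6, the β chain that pairs with αv in epithelia, was at 11.5 to 18.7 TPM in EY and 10.4 to 14.4 TPM in N. Itgb7, best known as a lymphocyte integrin chain, was at 12.6 and 12.9 TPM in EY3960, 2.40 and 2.12 TPM in EY4028, 7.47 and 7.34 TPM in EY4174, and 0.61, 0.64, 0.97 and 2.28 TPM in N. Itgb7 was the gene called against N in EY3960 (2.76, limma adjusted p = 1.63e-05) and in EY4174 (2.05, adjusted p = 1.98e-04). Of the EY lines, Itgb7 was highest in EY3960 and lowest in EY4028, 2.08 apart on the log2 scale (limma adjusted p = 0.00157 among lines), whereas Itga2 was highest in EY4028. The immune markers in the table, 3 of 6 listed, summed to at most 0.420 TPM in any library, and Cd3e was not among them. None of the 7 leukocyte and platelet integrins listed passed the filter on low values.

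Among 21 basement membrane and matrix ligands, 15 were in the table and 8 were tested, with a median log2 fold change of 0.35. In this list 2 were higher and 1 lower by the adjusted p, beside 11.8% of all genes in either direction, and 2 were called, beside 3.55%. Thbs1, which encodes thrombospondin-1, was at 6.73 to 15.7 TPM in EY and 3.34 to 6.05 TPM in N (1.10 ± 0.23, SE; limma adjusted p = 0.00477). Tnc, encoding tenascin-C, was at 0.024 to 1.22 TPM in EY and 1.82 to 4.58 TPM in N (-1.31 ± 0.27, SE; adjusted p = 0.00469). Col4a2, a collagen IV chain of the basement membrane, was at 2.29 to 4.16 TPM in EY and 1.00 to 1.51 TPM in N (0.95 ± 0.15, SE; adjusted p = 8.70e-04). Thbs1 lost its call without N replicate 1, 2 or 3 (adjusted p = 0.0195 to 0.0212), and Tnc without EY replicate 2, EY replicate 5 or any single N library (adjusted p = 0.0107 to 0.0132).

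Fn1, which encodes fibronectin, a ligand of αv and α5 integrins, varied most among the lines in this list. It was at 1.5 and 1.21 TPM in EY3960, 14.9 and 13.5 TPM in EY4028, 16.8 and 16.0 TPM in EY4174, and 6.70, 5.76, 7.76 and 6.47 TPM in N. EY3960 was thus below N by 1.70 on the log2 scale, and EY4028 and EY4174 were above it by 0.99 and 1.19 (limma adjusted p = 4.33e-07 among the EY lines). Over all EY libraries the difference was 0.16 ± 0.70 (SE; adjusted p = 0.894). Like Itga3, Fn1 was lowest of the EY lines in EY3960.

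Past the adjusted p were 2 of the 6 tested partners, both higher, and 2 higher and 1 lower of the 8 tested ligands. Adaptors that join integrins to actin, the list with most genes tested, also had most genes past it. Of 22 listed, 18 were tested, of which 6 were higher (Tln1, Flna, Parva, Bcar1, Actn4 and Pxn) and 1 lower (Tln2), beside the 11.8% of all genes that passed in either direction, and the median log2 fold change was 0.22. Talin-1, which binds β tails and activates integrins, is encoded by Tln1, which was at 6.37 to 13.1 TPM in EY and 4.22 to 5.80 TPM in N (0.94 ± 0.18, SE; limma adjusted p = 0.00331). Its paralog Tln2 was at 0.42 to 1.09 TPM in EY and 1.56 to 3.19 TPM in N (-0.85 ± 0.17, SE; adjusted p = 0.00361). Parva, encoding α-parvin, was at 46.2 to 62.8 TPM in EY and 29.3 to 42.5 TPM in N (0.66 ± 0.12, SE; adjusted p = 0.00205). Of the 18 tested, 6 had all EY libraries above all N libraries and 2 had all below, beside 11.3% and 9.10% of all genes tested. They include the 7 genes past the adjusted p, which rests on the same libraries. None of the 18 was called, since no fold change past the adjusted p exceeded 1 on the log2 scale, and 10 had an unadjusted p under 0.05, as did 4367 of all 11630 genes. With line as a random block in the fit, no adaptor, partner or ligand named here kept an adjusted p under 0.01 (0.0468 for Flna to 0.138 for Plec, and 0.0316 for Col4a2). Without N replicate 2, Actn4 was the only adaptor that still passed. Without line EY4028, none of the 7 adaptors past the limma adjusted p kept it (0.0104 to 0.0376). Neither the 6 matrix receptors that are not integrins nor the 6 tested of 8 enzymes that process or shed laminin-332 and collagen XVII held a gene past the adjusted p, and each list had 1 gene with an unadjusted p under 0.05.

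**Figure D5:**
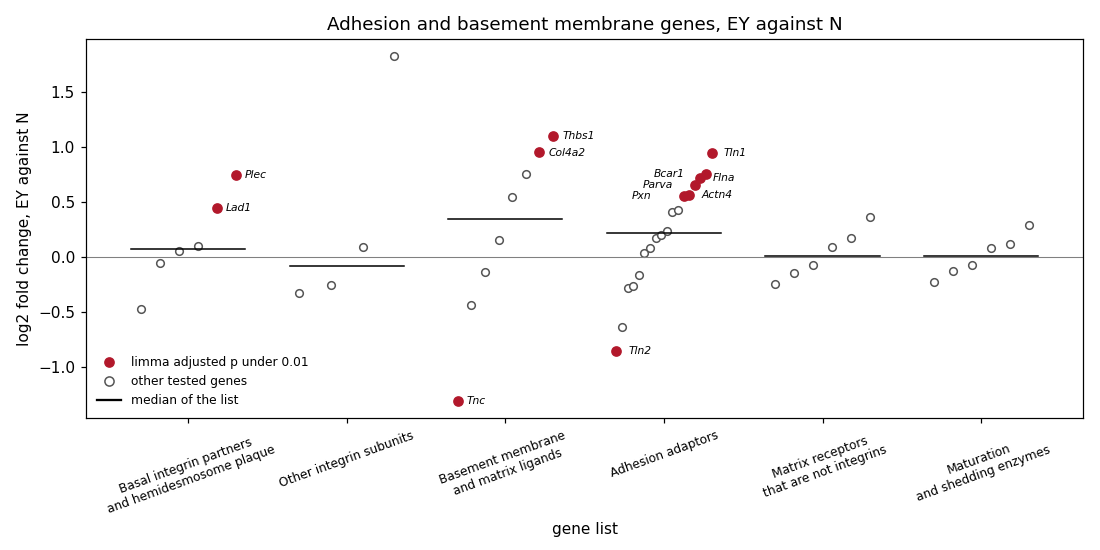
Log2 fold change of EY against N for the tested genes of 6 adhesion and basement membrane lists, 1 point a gene, with filled, named points for a limma adjusted p under 0.01 and a line at each list's median. The adaptor list holds 7 filled points, 6 of them above 0, and the lists of other integrin subunits, other matrix receptors and enzymes hold none.

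Genes with the most similar pattern over the 10 libraries were taken by Pearson's r on log2(TPM + 1) among 7640 genes with a mean of at least 5 TPM, as a description in which all points share libraries and lines. Itga3 was most like Plekha7 (r = 0.985) and Atic (0.972), Itga6 like Fzd6 (0.977) and Mgea5 (0.976), and Itgb4 like Abcc1 (0.973) and Tomm70a (0.965). Itgb1 was most like Lman1 (0.980) and Snn (0.979). For the laminin chains these were Cast (0.979) and Ptpre (0.973) for Lama3, and Fst (0.965) and Flrt2 (0.961) for Lamb3. Itga2 was most like Rps18 (0.966) and Abcg2 (0.926), Itgav like Sptbn1 (0.948), and Col17a1 had the lowest values, with Slc39a9 (0.904) and Kansl3 (0.901). No gene of the 9 was among the 2 nearest of another.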

How the data were processed

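RNA-seq of poly(A) RNA was analysed in 6 EY and 4 N libraries, grouped by the genotype labels and by the line in the sample titles. The deposited table holds TPM computed by the authors, per transcript length and scaled to a common sum within each library. The authors' (submitters') processing notes name STAR 2.7.9, SAMtools 1.7, HTSeq 0.13.5, DESeq2 1.34.0 and the build GRCm39. Which step made the TPM table, and its transcript reference, is not given in the sources used here. TPM keep no read depth, so depth is unknown and no counting interval could be given. Whether multi-isoform genes were summed or given by 1 transcript is likewise unknown.

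The authors tested read counts with DESeq2. Here limma (version 3.58.1, R 4.3.3), with trend and robust options, was run on log2(TPM + 1) of genes that reached 1 TPM in 4 libraries or more. P-values were adjusted by Benjamini-Hochberg over all 11630 genes tested, two-sided. A gene was called at an adjusted p under 0.01 and a log2 fold change over 1 in size. Fold changes on this scale understate those of low genes. Each line was compared with N, and the EY lines with each other (F test), in a model of 4 line means. Alternatives covered pseudocount, filter, scaling, variance model, libraries, lines, a replicate block and gene type. The fits were tested on simulated data. For EY against N the simulated lines had no spread of their own, so this cannot show the rate of false calls here.

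The 9 genes and all lists were chosen with earlier results of these data known. Named genes were the 9, called genes of the lists, Plec, Dst, Cd151, Krt5, Krt14, Yap1 and the 2 nearest genes by Pearson's r (the second of Itgav carried a symbol turned into a date and is not named). Fn1, Itgb5, Itgb6, Itgb7, Lad1, Lamb1, Lamb2, Col4a2, Tln1, Tln2, Flna, Actn4, Parva, Bcar1 and Pxn were named after their values were seen. So were the markers Sprr1a, Krt4, Krt10, Lor and Krtdap. One gene of this rule, and counts that rest on it, are not reported here. Promoter windows are RefSeq sequence of GRCm38.p6, not the build of the authors.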

Additional observations from a re-analysis of the deposited data

Results flagged for a closer look

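N replicate 4 stood apart from the other N libraries in 3 genes: Itgb1 at 382 TPM beside 267 to 285 TPM, Tnc at 4.58 TPM beside 1.82 to 2.04 TPM, and Thbs1 at 6.05 TPM beside 3.34 to 3.80 TPM. By chance about 1 in 20 groups holds such a library, and 76 groups were examined, which gives 3.8. All 3 outlying values were in this library, which also had the highest suprabasal sum of N (393 TPM), and the part of either in the other was not tested.

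The EY lines differed among themselves in limma's F test (adjusted p under 0.01) for 7 of the named genes, beside 8.55% of all genes tested. Fn1 and Itgb7 were named after their values were seen, so the count is not comparable with that share. The largest log2 difference between a pair of lines was 0.84 for Itga3 (adjusted p = 0.00101), 1.14 for Lama3 (0.00205), 0.82 for Lamb3 (0.00531), 0.86 for Krt5 (6.03e-04), 0.63 for Krt14 (0.00271), 2.89 for Fn1 (4.33e-07) and 2.08 for Itgb7 (0.00157). Itga3 and Fn1 were lowest in EY3960, Lama3 and Lamb3 in EY4174, and Itgb7 in EY4028, so the low line was not the same for all of them.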

How the results depend on the processing

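None of the 8 tested genes was called between EY and N under any alternative run. Leaving out single libraries gave 0 to 1 of them with an adjusted p under 0.01. Leaving out line EY3960, the EY line with the lowest Itga3, gave 1, Itga3. The genes called between EY and N, 413 of all, became 216 with at least 1 TPM in every library, 203 with line as a random block, 2 with the mean of each line and 221 under a replicate block of sample numbers. Samples with the same number did not deviate together (correlations of -0.155 and 0.0162), the block called none of the 8 genes, and Lama3 was 0.08 in it. In 2 alternatives, the random block and the line means, Plec, Lad1, Tnc, Thbs1, Col4a2 and the 7 adaptors lost an adjusted p under 0.01 (Plec 0.138 and 0.317). Under the replicate block all of these but Parva lost it too (0.015 to 0.0823). Without line EY4028, Plec, Lad1, Tnc, Thbs1 and the 7 adaptors also lost an adjusted p under 0.01 (0.0104 for Tln2 to 0.0376 for Pxn). With at least 1 TPM in every library, 455, 371 and 317 genes were called in EY3960, EY4028 and EY4174, and 350 between EY lines. With no filter, Itga2 raised the calls to 1 in EY4028 and to 2 between lines. Median-ratio scaling left 0 between lines. Single libraries left out gave 0 to 1 called of the 8 in EY4174 and 0 to 1 between lines.

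Every value that changed sign had an adjusted p over 0.05 in both fits. For EY against N, single libraries left out gave -0.16 to 0.14 for Lama3, -0.06 to 0.03 for Col17a1, -0.04 to 0.16 for Krt5, -0.13 to 0.02 for Krt14 and -0.05 to 0.55 for Fn1. Without EY3960 Krt14 was 0.12, and without EY4028 Fn1 was -0.26. Without EY4174, Lama3 was 0.31, Lamb3 0.09, Col17a1 0.03, Cd151 -0.00, Krt5 -0.16 and Fn1 -0.36. Krt5 was -0.00 under quantile normalization. In EY3960 single libraries left out gave -0.05 to 0.16 for Itga6, -0.05 to 0.28 for Itgb4, -0.17 to 0.11 for Lamb3 and -0.12 to 0.07 for Col17a1, and Itga6 was -0.08 under quantile normalization and -0.01 without mitochondrial genes. In EY4174 they gave -0.10 to 0.35 for Itgb4, -0.11 to 0.08 for Itgb1, -0.06 to 0.04 for Itgav and -0.32 to 0.03 for Col17a1. Median-ratio scaling gave 0.00 for Itgb1 and 0.04 for Itgav in EY4174 and -0.02 for Col17a1 in EY4028, and quantile normalization 0.02 for Itgav in EY4174. The cause of these changes was not tested. Where 1 library is left of a line, it is assumed to vary like the others.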
